A study of Homo sapiens with 12 samples.

Results

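The splicing regulators examined here were the SR proteins, the heterogeneous nuclear ribonucleoproteins (hnRNPs) and smaller families of RNA-binding proteins that choose splice sites. Members were chosen by gene name alone: the SRSF genes, every gene whose symbol starts with HNRNP, CELF1 to CELF6, MBNL1 to MBNL3, PTBP1 to PTBP3, RBFOX1 to RBFOX3, and QKI, TRA2A, TRA2B, U2AF1 and U2AF2. This gave 57 of the 19038 genes in the tables, each counted on 1 transcript: 12 SR proteins, 25 hnRNPs, 6 CELF, 3 MBNL, 3 PTBP and 3 RBFOX genes, and 5 in the last group. The tumours were xenografts of 22Rv1, a human prostate cancer cell line, grown under the skin of male immunodeficient NSG mice. Mice received 1 of the 2 treatments by intraperitoneal injection: zotatifin, an inhibitor of the RNA helicase eIF4A, at 0.3 mg/kg in dextrose solution, or the dextrose vehicle alone. Tumours were collected 6 h later, and ribosome footprints (fragments between 24 and 34 nt from the monosome fractions) and total RNA were sequenced from the same lysates. There were 3 zotatifin and 3 vehicle libraries for each assay, so that every comparison is of 3 against 3.

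SR proteins bind exonic enhancers through RNA recognition motifs and recruit the spliceosome through domains rich in arginine and serine, whereas many hnRNPs bind silencers and oppose them. PTBP, CELF, MBNL, RBFOX and QKI proteins bind pyrimidine, GU-rich, YGCY, GCAUG and ACUAA motifs and switch exons with the tissue, and U2AF1 and U2AF2 recognise the 3′ splice site. Members of these families bind their own transcripts or those of relatives, often to include a poison exon. eIF4A unwinds the 5′ leader during scanning, and inhibitors of the rocaglate type, which includes zotatifin, clamp it on polypurine RNA.

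Footprint libraries held 838135 to 1540867 counts with zotatifin and 1592316 to 2013968 with vehicle, and RNA libraries held 6594884 to 8153674 counts with zotatifin and 5761921 to 7121802 with vehicle. The members took on average 2.57% of footprint counts with zotatifin and 2.66% with vehicle (p = 0.5 by an exact two-sided permutation test). Of RNA counts they took 1.35% with zotatifin and 1.25% with vehicle (exact permutation p = 0.1, the smallest that 3 against 3 allows). Levels are given below as CPM (counts scaled to a common library size), with library sizes adjusted by TMM. This scaling removes a change shared by all genes of an assay, so every change below is relative to the other genes. The ratio of a tumour's footprint CPM to its RNA CPM, on the log2 scale, is called translational efficiency (TE). Changes are log2 values of zotatifin over vehicle with their standard error (SE), and a gene is said to rise or fall where the adjusted p was under 0.05 (edgeR's quasi-likelihood test, Benjamini-Hochberg over all genes tested). For TE, a second p comes from the fit that keeps the 2 libraries of each tumour together (the tumour as a block), because footprints and RNA of 1 tumour come from 1 lysate.

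Of the 57 members, 50 had enough counts to be tested in footprints, 50 in RNA and 48 in TE. The leaders of the hnRNPs that fell and of PTBP1 show what the start of these transcripts looks like, and they are printed because eIF4A acts on this stretch. Each line holds bases 21 to 50 counted from a start site annotated by RefSeq (GRCh38.p14), on the transcribed strand, with purine runs of 4 or more bases in capitals.
HNRNPAB (chr5:178204553-178204582, plus strand): acGGAGcttggctgttggtcggtgggttcc
HNRNPC (chr14:21269393-21269422, minus strand): tttgtGAAGAGAcGAAGActgagcggttgt
HNRNPD (chr4:82373942-82373971, minus strand): cgcggcggcgccattAAAGcGAGGAGGAGG
HNRNPA3 (chr2:177212814-177212843, plus strand): gccgcccggtcgcccccagcccgactccgg
PTBP1, first start (chr19:797472-797501, plus strand): tcccccgcgggtctgctctgtgtgccatgg
PTBP1, next start (chr19:798004-798033, plus strand): ccGGAAGcgcaggcGGGGctGGGGcggccg
HNRNPD and HNRNPC carried the longest purine runs of these, with 10 and 8 bases within the first 50, against 5 in HNRNPA3, 4 in HNRNPAB and 3 and 5 at the starts of PTBP1. The median over all 35116 annotated starts was 5. Of hnRNPs called in no comparison, HNRNPK had runs of 15 and 7 at its starts, HNRNPLL 13 and HNRNPR 4. They are examples that no naming rule picked, and other uncalled hnRNPs are left out. HNRNPF, whose TE was lower with the block, had 4 and 3. How run length relates to the changes was not tested. Runs of 8 or more purines (A or G, sense strand only, overlapping no other motif searched) stood in the first 50 bases of 15 of 101 starts of the 51 matched members, or 14.9%, and in 21% of all starts. The run length was chosen after the values were seen, and the starts used in these tumours were not measured. HNRNPA1, HNRNPCL3, QKI, RBFOX2, SRSF2 and TRA2A had no entry.

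In footprints, 1 member rose and 6 fell of the 50 tested, or 14% of them, where 7.14% of all 9544 genes tested were called (3.22% rose and 3.92% fell). PTBP1 rose, and QKI, CELF2, HNRNPAB, HNRNPD, HNRNPA3 and TRA2A fell. In RNA, CELF2 alone fell of the 50 tested, where 1.72% of all 13118 genes tested were called (0.907% fell). In TE, HNRNPAB and HNRNPC fell and PTBP1 rose of the 48 tested, where 1.69% of all 9454 genes tested were called (1.22% fell and 0.476% rose). With the tumour as a block, 13 of the 48 members were called in TE, or 27.1% (11 fell and 2 rose), where 8.66% of all genes were called (5.05% fell and 3.62% rose). Without any test, the zotatifin and vehicle libraries did not overlap for 40% of the members in footprints, 40% in RNA and 43.8% in TE, against 26.4%, 23.1% and 26.3% of all genes tested. The members hold more counts per gene than the average gene, and no share was taken over genes of like depth.

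**Figure D1:**
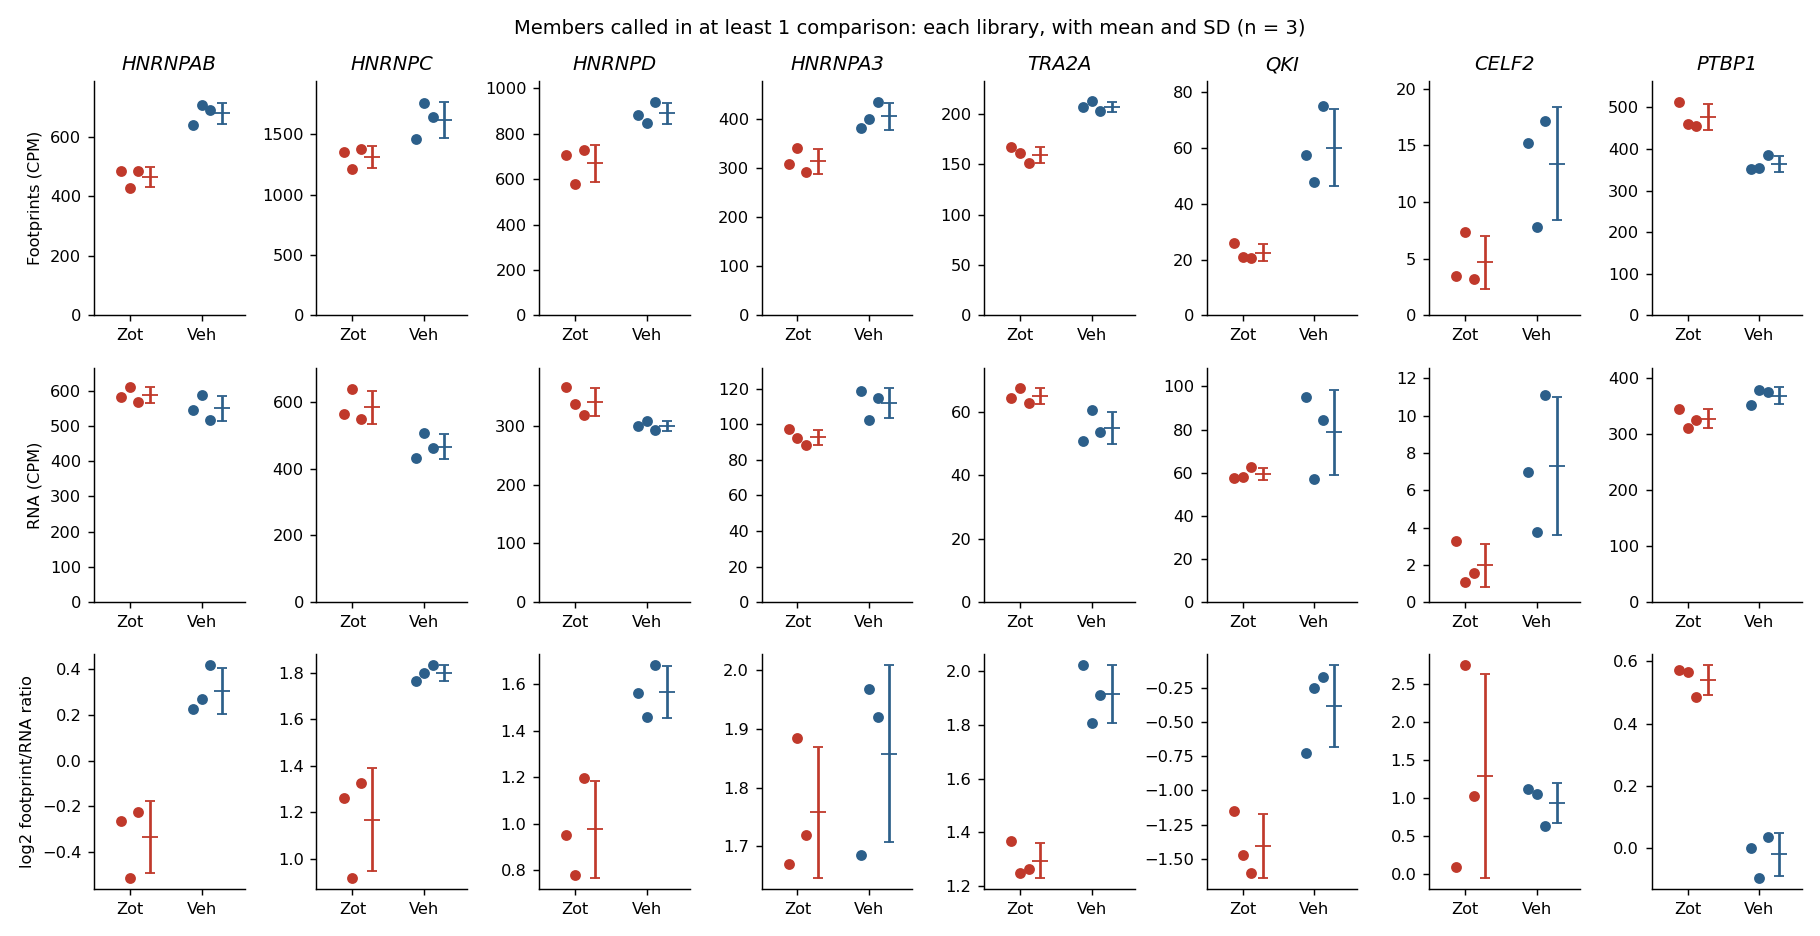
Each library's level of the 8 members called in footprints, RNA or TE, with zotatifin (Zot) in red and vehicle (Veh) in blue. The rows show footprint CPM, RNA CPM and the log2 footprint/RNA ratio, points are tumours and bars are the mean with its SD (n = 3). The ratio axes do not start at 0 and differ between genes. For HNRNPAB, HNRNPC, HNRNPD, TRA2A and QKI every zotatifin ratio lies below every vehicle ratio, and for PTBP1 every one lies above.

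Among hnRNPs, footprints of HNRNPAB, HNRNPD and HNRNPA3 fell, none of the 25 rose where 3.22% of all genes did, and none of the 23 tested in RNA passed where 1.72% of all genes did. HNRNPAB, an hnRNP of the A/B type (chromosome 5, 178204533 to 178211163, GRCh38), had 485, 428 and 486 footprint CPM with zotatifin and 638, 708 and 689 CPM with vehicle. The groups were far apart, and the change was −0.54 (SE 0.10, adjusted p = 0.0015). HNRNPAB RNA was at 583, 611 and 568 CPM with zotatifin and 546, 588 and 516 CPM with vehicle, which overlap (0.10, SE 0.12, adjusted p = 0.709). Its TE was −0.27, −0.51 and −0.22 with zotatifin and 0.23, 0.27 and 0.42 with vehicle. TE fell by 0.60 (SE 0.15, adjusted p = 0.0312, and 3.02e-04 with the tumour as a block). No zotatifin tumour had a ratio above 0 and no vehicle tumour one below it.

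HNRNPC, which binds uridine tracts on nascent transcripts and keeps cryptic exons out, showed opposite signs in its 2 assays. Its RNA was at 564, 640 and 548 CPM with zotatifin and 431, 506 and 461 CPM with vehicle, without overlap (0.33, SE 0.12, adjusted p = 0.161). Its footprints were at 1351, 1209 and 1375 CPM with zotatifin and 1463, 1758 and 1640 CPM with vehicle, again without overlap (−0.30, SE 0.10, adjusted p = 0.0713). Neither change passed the threshold on its own, although the footprint change did by DESeq2 and without a filter on low counts (adjusted p = 0.0344 and 0.0424). TE of HNRNPC was 1.26, 0.92 and 1.33 with zotatifin and 1.76, 1.80 and 1.83 with vehicle, and it fell by 0.60 (SE 0.16, adjusted p = 0.0454, and 5.20e-04 with the block).

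HNRNPD, also known as AUF1 and a regulator of the decay of AU-rich mRNAs, had 706, 578 and 728 footprint CPM with zotatifin and 883, 848 and 937 CPM with vehicle (−0.40, SE 0.11, adjusted p = 0.0179). Its RNA stood at 365, 337 and 318 CPM with zotatifin and 299, 308 and 292 CPM with vehicle (0.18, SE 0.12, adjusted p = 0.436). In both assays the groups did not overlap, in opposite directions. TE was 0.95, 0.78 and 1.20 with zotatifin and 1.56, 1.46 and 1.68 with vehicle (−0.56, SE 0.16, adjusted p = 0.0589, and 9.99e-04 with the block).

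HNRNPA3 differed from these in that its RNA was lower too. It had 309, 341 and 291 footprint CPM with zotatifin and 381, 400 and 435 CPM with vehicle (−0.38, SE 0.10, adjusted p = 0.0263). RNA was at 97.1, 92.4 and 88.4 CPM with zotatifin and 119, 102 and 115 CPM with vehicle (−0.27, SE 0.12, adjusted p = 0.226), and the groups did not overlap in either assay. TE of HNRNPA3 changed by −0.07 (SE 0.16, adjusted p = 0.871), with overlapping groups.

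HNRNPF, which binds G tracts, had 577, 591 and 601 footprint CPM with zotatifin and 631, 773 and 704 CPM with vehicle (−0.25, SE 0.10, adjusted p = 0.136). Its RNA was at 595, 637 and 634 CPM with zotatifin and 478, 555 and 477 CPM with vehicle (0.30, SE 0.12, adjusted p = 0.182). TE of HNRNPF lay between −0.11 and −0.04 in the zotatifin tumours and between 0.40 and 0.56 in the vehicle tumours. The TE change was −0.53 (SE 0.15, adjusted p = 0.0699, and 0.00125 with the block). HNRNPA2B1, the member with the most footprint counts, passed for TE with the block (−0.36, adjusted p = 0.0494, against 0.23 without it) and by DESeq2. It passed in none of the 6 blocked fits that left out 1 tumour. HNRNPA1, the best known splicing repressor of the family, had 2535 ± 127 footprint CPM with zotatifin and 2261 ± 192 with vehicle (SD, n = 3 each), and a TE change of 0.06 (SE 0.15, adjusted p = 0.894). HNRNPL, which binds CA repeats, stood higher in both assays without overlap, with changes of 0.29 in footprints (adjusted p = 0.0868) and 0.33 in RNA (adjusted p = 0.21), neither past the threshold. HNRNPH2, HNRNPCL1 and HNRNPCL2, named after their values were seen, also had a lower TE with the block (−0.45, −0.64 and −0.72, adjusted p = 0.0142, 0.0307 and 0.0153). The close relative of HNRNPH2, HNRNPH1, had TE means of 1.91 with zotatifin and 1.80 with vehicle (0.14, SE 0.15, adjusted p = 0.7).

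Over the whole hnRNP family, the fitted RNA change was above 0 for 20 of 23 members, with a median of 0.18, beside −0.00 over all genes tested, of which 49.7% were above 0. The fitted TE change was below 0 for 18 of 23, with a median of −0.11, beside 0.02 over all genes. The footprint median was −0.04, with 12 of 25 above 0, beside 0.00 over all genes. For 11 hnRNPs the RNA libraries stood higher with zotatifin without overlap, for 11 the TE stood lower without overlap, and 9 hnRNPs had both. Among all genes tested, the shares were 12.3% for RNA higher without overlap, 15.6% for TE lower without overlap and 5.88% for both. RNA enters the ratio as its denominator, so these counts are not independent of each other. HNRNPC and its copies HNRNPCL1 and HNRNPCL2 are counted apart in each of them, though reads may be shared among the 3 genes. Summed over the family, RNA was at 9878, 9725 and 9749 CPM with zotatifin and 8331, 9077 and 8760 CPM with vehicle, and footprints were at 21110, 19510 and 20950 CPM with zotatifin and 19590, 22100 and 22040 CPM with vehicle. The RNA sums did not overlap and the footprint sums did.

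Some hnRNP rows share sequence, and short footprints can be counted on more than 1 of them. HNRNPCL1 to HNRNPCL4 are copies of HNRNPC on chromosome 1, and HNRNPA1L2 is a copy of HNRNPA1. HNRNPCL3 had 70 to 128 footprint counts with zotatifin and 136 to 161 with vehicle, but 0 to 1 RNA counts with zotatifin and 0 to 2 with vehicle. HNRNPCL1 had the highest TE of the 48 members tested, at 3.59 ± 0.37 with zotatifin and 4.35 ± 0.47 with vehicle (SD, n = 3 each). The start windows of HNRNPC (chr14:21269399-21269427, minus strand) and HNRNPCL4 (chr1:13165606-13165634, minus strand) share a 29-base run, shown as the likeness the 2 loci have at their starts: GCCATTTTGTGAAGAGACGAAGACTGAGC. HNRNPCL4 was not tested in TE, and the longest run that the windows of HNRNPCL1 and HNRNPCL2 share with that of HNRNPC is 8 bases. With the near copies summed, a setting chosen after the data were seen, the TE change of HNRNPC was −0.55 (adjusted p = 0.0678 without the block and 0.00151 with it). That of HNRNPA1 was 0.07 (adjusted p = 0.874 without the block). Values of HNRNPC, HNRNPA1 and their copies are uncertain, and how reads were divided among them was not tested. HNRNPC, HNRNPCL1 and HNRNPCL2 are also counted apart among the 13 members called in TE with the block.

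**Figure D2:**
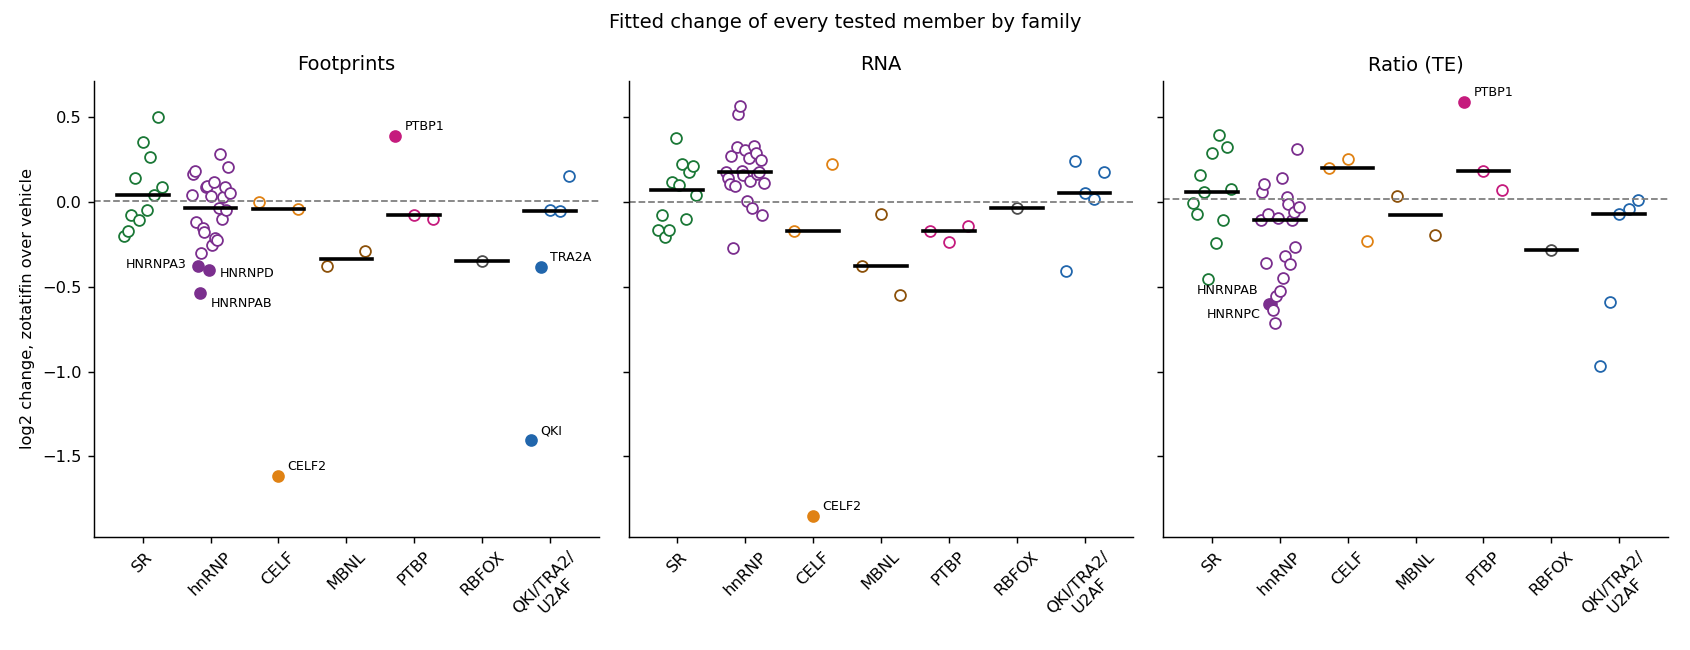
Fitted log2 change (zotatifin over vehicle) of each tested member, by family, in footprints, RNA and the footprint/RNA ratio (TE). Filled points are called at an adjusted p under 0.05 without the block, black bars are family medians and the dashed line is the median of all genes tested. The hnRNPs lie mostly above the line in RNA and below it in TE.

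No SR protein passed the test in footprints (0 of 11 tested), RNA (0 of 12) or TE (0 of 11), where 7.14%, 1.72% and 1.69% of all genes did, so that a list of this size would hold few calls at those shares. Their medians were 0.04, 0.07 and 0.06, and their summed CPM overlapped between groups in both assays. SRSF3, a small SR protein that also acts in RNA export and 3′ end formation, was the nearest to a call in RNA. It stood at 347, 389 and 339 RNA CPM with zotatifin and 275, 299 and 253 CPM with vehicle, without overlap (0.38, SE 0.12, adjusted p = 0.108). Footprints of SRSF3 were at 757, 704 and 692 CPM with zotatifin and 762, 804 and 749 CPM with vehicle, which overlap (−0.11, SE 0.10, adjusted p = 0.578). TE of SRSF3 was 1.12, 0.86 and 1.03 with zotatifin and 1.47, 1.43 and 1.56 with vehicle (−0.45, SE 0.15, adjusted p = 0.12, and 0.00614 with the block). In the authors' deposited table, the RNA change of SRSF3 was 0.38 with an adjusted p of 0.0335.

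The fitted TE change was above 0 for 6 of the 11 SR proteins tested and below 0 for 5. SRSF6, named after its values were seen, had the largest of those above 0. Its TE was 0.64, 1.07 and 0.77 with zotatifin and 0.38, 0.45 and 0.55 with vehicle, without overlap (0.39, SE 0.15, adjusted p = 0.2, and 0.0254 with the block). The blocked call was lost when zotatifin tumour 2 or 3 or vehicle tumour 1 or 2 was left out (adjusted p up to 0.173). SRSF8, a retrocopy of SRSF2, had 49, 46 and 72 footprint counts with zotatifin and 65, 59 and 58 with vehicle. Scaled to CPM these were 42.5, 56.4 and 46.6 with zotatifin and 31.9, 32.8 and 36.9 with vehicle, without overlap (0.50, SE 0.17, adjusted p = 0.0742). SRSF7, second to SRSF3 in footprint counts, had 436 ± 21 CPM with zotatifin and 423 ± 16 with vehicle (SD, n = 3 each; 0.04, SE 0.10, adjusted p = 0.844). SRSF12 had 1 to 4 footprint counts with zotatifin and 3 to 6 with vehicle and was tested only in RNA.

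PTBP1, which binds pyrimidine tracts and represses exons in most cells outside the nervous system, was the 1 member whose footprints and TE rose. Its gene lies on chromosome 19 from 797452 to 812312 (GRCh38). Footprints were at 513, 460 and 456 CPM with zotatifin and 352, 355 and 385 CPM with vehicle (0.39, SE 0.10, adjusted p = 0.0176). PTBP1 RNA was at 345, 311 and 326 CPM with zotatifin and 351, 379 and 375 CPM with vehicle (−0.17, SE 0.12, adjusted p = 0.458). The groups did not overlap in either assay, and the directions were opposite. TE was 0.57, 0.56 and 0.49 with zotatifin and 0.00, −0.10 and 0.04 with vehicle, and it rose by 0.59 (SE 0.15, adjusted p = 0.0343, and 2.28e-04 with the block). Without a filter on low counts, the TE call without the block was lost (adjusted p = 0.0636).

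The paralogs of PTBP1 did not pass the test in any comparison. PTBP2, the form known from neurons, had 38, 20 and 37 footprint counts with zotatifin and 51, 49 and 54 with vehicle, and its TE change was 0.18 (SE 0.29, adjusted p = 0.817). PTBP3 had 356 ± 30 footprint CPM with zotatifin and 382 ± 54 with vehicle (SD, n = 3 each), and its TE change was 0.07 (SE 0.19, adjusted p = 0.89). All 3 genes had a fitted RNA change below 0 and a fitted TE change above 0.

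QKI, a KH domain protein that binds ACUAA elements and promotes circular RNAs, had the smallest adjusted p of the members in footprints. It lies on chromosome 6 from 163414718 to 163578592 (GRCh38). Footprint counts were 30, 17 and 32 with zotatifin and 117, 86 and 118 with vehicle, or 26.0, 20.9 and 20.7 CPM and 57.5, 47.7 and 75.0 CPM. Every zotatifin library was far below every vehicle library (−1.40, SE 0.20, adjusted p = 7.84e-05). QKI RNA was at 57.7, 57.9 and 62.8 CPM with zotatifin and 95.1, 57.0 and 84.4 CPM with vehicle, where vehicle tumour 2 lay below all 3 zotatifin tumours (−0.41, SE 0.15, adjusted p = 0.16). TE was −1.15, −1.47 and −1.60 with zotatifin and −0.73, −0.26 and −0.17 with vehicle, without overlap. The TE change was −0.97 (SE 0.29, adjusted p = 0.0763, and 0.00204 with the block).

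TRA2A and TRA2B are SR-like proteins that bind GAA-rich enhancers, and they parted in these data. TRA2A had 167, 161 and 151 footprint CPM with zotatifin and 207, 212 and 202 CPM with vehicle (−0.38, SE 0.11, adjusted p = 0.0308, and 0.0523 by DESeq2, which ends the call). Its RNA was at 64.6, 67.6 and 62.8 CPM with zotatifin and 50.9, 60.6 and 53.7 CPM with vehicle, without overlap and the other way (0.24, SE 0.13, adjusted p = 0.328). TE of TRA2A was 1.37, 1.25 and 1.26 with zotatifin and 2.02, 1.81 and 1.91 with vehicle (−0.59, SE 0.16, adjusted p = 0.0516, and 0.00328 with the block). TRA2B had 272 ± 14 footprint CPM with zotatifin and 280 ± 20 with vehicle (SD, n = 3 each), and a TE change of −0.07 (SE 0.15, adjusted p = 0.868). The difference between the 2 paralogs was not tested. U2AF2 and U2AF1, the large and small subunit that read the polypyrimidine tract and the AG of the 3′ splice site, had TE changes of 0.01 (SE 0.15, adjusted p = 0.983) and −0.04 (SE 0.16, adjusted p = 0.935). U2AF1 has a near-identical copy, U2AF1L5, in the same tables, so that its own level is uncertain.

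CELF2, which binds GU-rich RNA and is best known from T cells, heart and brain, fell in footprints and in RNA and had few counts. Its gene spans chromosome 10 from 10462550 to 11336675 (GRCh38). Footprint counts were 4, 6 and 5 with zotatifin and 31, 14 and 27 with vehicle (−1.61, SE 0.41, adjusted p = 0.0144), and DESeq2 gave it no adjusted p there. RNA counts were 27, 7 and 12 with zotatifin and 40, 23 and 80 with vehicle (−1.85, SE 0.43, adjusted p = 0.0322). In CPM the groups did not overlap in either assay, and vehicle tumour 2 was the lowest vehicle tumour in both. The TE change was 0.25 (SE 0.69, adjusted p = 0.894), with zotatifin tumours spread from 0.09 to 2.75.

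Fibroblast markers in both assays and myeloid markers in footprints were lower in the same tumours as CELF2. The 10 fibroblast markers summed to 140 to 259 footprint CPM with zotatifin and 462 to 797 with vehicle, and 5 of the 6 that could be tested fell. In RNA these markers summed to 69.4 to 131 CPM with zotatifin and 216 to 364 with vehicle, and 4 of 6 fell. The 8 myeloid markers summed to 36.2 to 65.0 footprint CPM with zotatifin and 76.0 to 349 with vehicle, with vehicle tumour 2 again the lowest vehicle tumour. In RNA the myeloid markers summed to 10.8 to 20.6 CPM with zotatifin and 16.2 to 54.8 with vehicle, which overlap. Among those that could be tested, 2 of 4 fell in footprints and 1 of 3 in RNA. Of the myeloid markers CD14 had no footprint count and TYROBP no RNA count in either group. The 7 muscle markers summed to 257 to 381 footprint CPM with zotatifin and 464 to 554 with vehicle, with 0 of 4 tested called, and to 39.6 to 100 RNA CPM with zotatifin and 78.4 to 258 with vehicle, with 0 of 6 called. Neuroendocrine and neuronal markers (144 to 183 footprint CPM with zotatifin and 130 to 168 with vehicle) and red blood cell markers (129 to 156 with zotatifin and 101 to 254 with vehicle) overlapped, and endothelial markers held at most 3.68 CPM with zotatifin and 4.45 with vehicle. In RNA, red blood cell markers summed to 15.6 to 22 CPM with zotatifin and 18.8 to 35.8 with vehicle, and 1 of 3 fell. Endothelial markers summed to 3.04 to 5.76 RNA CPM with zotatifin and 5.42 to 12.8 with vehicle, with 0 of 2 called. Neuroendocrine and neuronal markers summed to 82.1 to 88.9 RNA CPM with zotatifin and 82.4 to 110 with vehicle, with 0 of 2 called. These RNA sums overlapped. The 10 markers of 22Rv1 and prostate epithelium summed to 5360 to 6190 footprint CPM with zotatifin and 4070 to 5360 with vehicle, with none at 0, and 3 of 10 rose. In RNA these 10 markers summed to 5020 to 5460 CPM with zotatifin and 4310 to 5220 with vehicle. These RNA sums overlap, and 0 of 10 were called. The part of other cells in the values of CELF2, QKI and MBNL1 was not tested, and in bulk tumours fewer cells of a type and less RNA per cell cannot be told apart. The host is a mouse, and no step that removes mouse reads is given in the sources used here.

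CELF1, the broadly expressed relative of CELF2, had 164 ± 22 footprint CPM with zotatifin and 165 ± 13 with vehicle (SD, n = 3 each), and its TE change was 0.20 (SE 0.17, adjusted p = 0.62). CELF4, CELF5 and CELF6 had 0 footprint counts in every zotatifin library and 0 or 1 in each vehicle library. MBNL1, which opposes CELF proteins on many exons of heart and muscle, had 75.5, 73.6 and 74.4 footprint CPM with zotatifin and 105, 85.5 and 99.8 CPM with vehicle, without overlap (−0.38, SE 0.14, adjusted p = 0.0915). RNA of MBNL1 was at 173, 134 and 195 CPM with zotatifin and 243, 180 and 231 CPM with vehicle, which overlap (−0.38, SE 0.14, adjusted p = 0.16). Both assays gave the same fitted size, and the TE change was 0.03 (SE 0.21, adjusted p = 0.961). MBNL2 had 12.6 ± 5.6 footprint CPM with zotatifin and 16.5 ± 1.7 with vehicle (SD, n = 3 each; −0.29, SE 0.29, adjusted p = 0.604).

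Of the RBFOX genes, RBFOX2 alone was tested. It had 23, 11 and 40 footprint counts with zotatifin and 42, 51 and 49 with vehicle, and 89.4 ± 13.5 RNA CPM with zotatifin and 91.8 ± 17.3 with vehicle (SD, n = 3 each). Its TE was the lowest of the 48 members tested, at −2.26, −2.46 and −1.93 with zotatifin and −2.43, −1.57 and −1.35 with vehicle, and the groups overlapped (−0.28, SE 0.30, adjusted p = 0.7). RBFOX1 had 0, 1 and 0 footprint counts with zotatifin and 1, 4 and 1 with vehicle, and RBFOX3 had none in any footprint library.

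**Figure D3:**
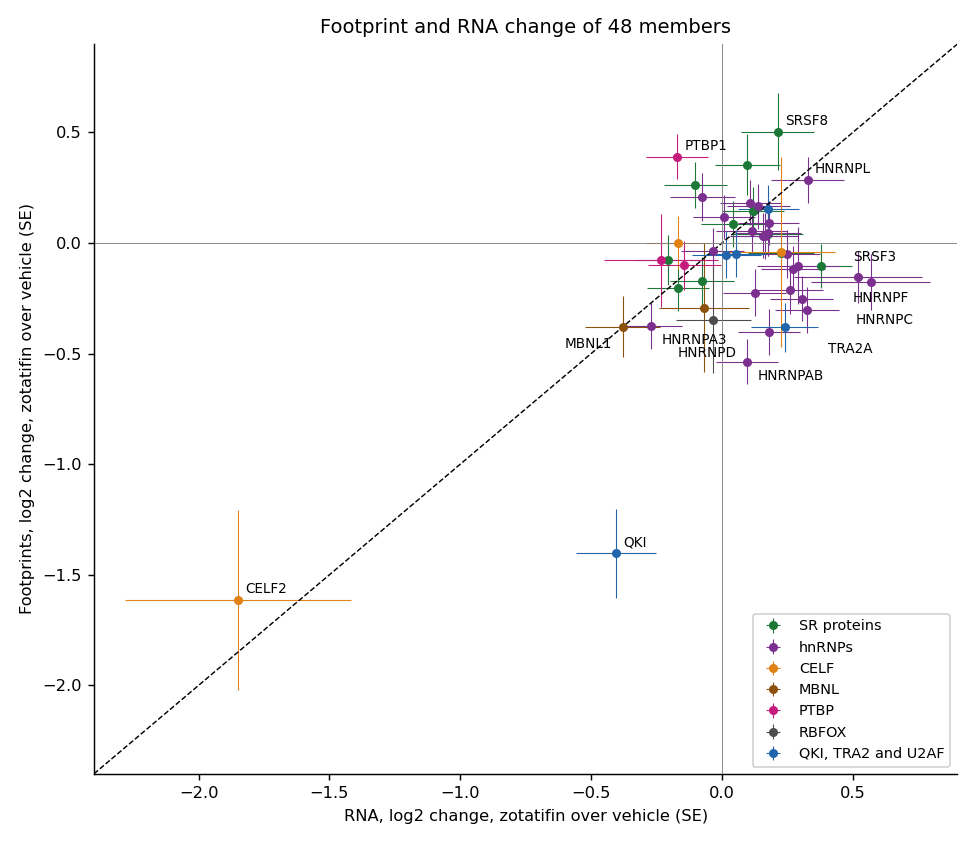
RNA change (horizontal) against footprint change (vertical) of the 48 members tested in both, as log2 of zotatifin over vehicle with SE bars, coloured by family. The dashed diagonal marks equal change in both assays. CELF2 and MBNL1 lie on or near the diagonal, QKI, HNRNPAB, HNRNPC, HNRNPD and TRA2A lie below it, and PTBP1 above.

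The level of TE varied widely among the members. Dividing footprints by RNA of the same transcript cancels its length if both were counted over the same stretch, which the sources used here do not give, and footprints of a near copy raise it. The median over the members' mean TE was 1.21 with zotatifin and 1.42 with vehicle for the hnRNPs, 0.83 and 0.84 for the SR proteins, 0.95 and 0.80 for the CELF genes, 0.54 and −0.02 for the PTBP genes, 0.31 and 0.40 for QKI with the TRA2 and U2AF genes, −1.06 and −0.85 for MBNL1 and MBNL2, and −2.22 and −1.79 for RBFOX2. Members of different families overlapped: vehicle means ran from −1.40 to 4.35 among hnRNPs and from −0.43 to 2.08 among SR proteins, and differences between families were not tested. Over all genes tested the median was −0.23 with zotatifin and −0.19 with vehicle. The PTBP median is the value of PTBP1. Mean TE with zotatifin and vehicle was 1.33 and 1.19 for PTBP2, and −0.643 and −0.695 for PTBP3. In each of the 3 zotatifin tumours the hnRNP median (1.17, 1.13 and 1.33) was below that of each vehicle tumour (1.41, 1.44 and 1.48), while the SR medians overlapped (0.81, 0.95 and 0.77 with zotatifin, and 0.83, 0.81 and 0.83 with vehicle).

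**Figure D4:**
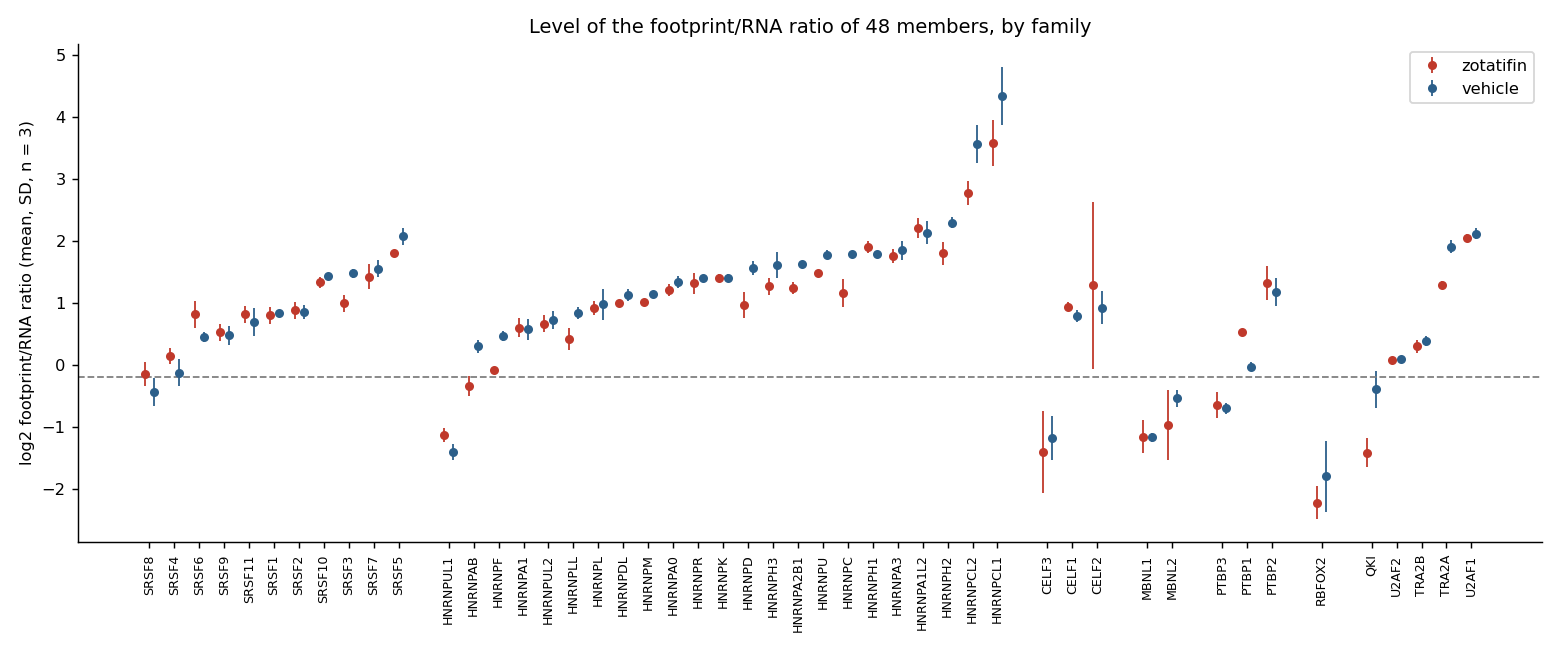
Log2 footprint/RNA ratio of the 48 members tested in both assays, as mean and SD over 3 tumours, with zotatifin in red left of vehicle in blue, grouped by family and ordered by the vehicle mean. The dashed line is the median of all genes tested with vehicle. Most SR proteins and hnRNPs lie above it, and RBFOX2 lies lowest.

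The authors' deposited table of footprints given RNA, whose estimate is on the natural log scale, calls 17 of 50 members at an FDR under 0.05 (13 lower and 4 higher), where it calls 18.3% of all genes (10.2% lower and 8.09% higher). All 13 members called here with the block are among those 17 of the authors' deposited table. Both rest on the same libraries, so this overlap is not independent support. The authors' deposited RNA table calls CELF2 and SRSF3 of 50 members, where it calls 2.47% of all genes. In the authors' deposited table of footprints given RNA, the estimates were −0.36 for HNRNPAB, −0.37 for HNRNPC, −0.40 for HNRNPD, −0.62 for QKI and 0.47 for PTBP1. On the log2 scale the estimates from the authors' deposited table are −0.52, −0.53, −0.57, −0.89 and 0.68.

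Other proteins of the splicing machinery were taken from a list of 99 genes. In footprints 4 of 95 tested rose and 4 fell, in RNA 1 of 97 rose and none fell, and in TE 2 of 95 rose and 2 fell without the block. Of all genes tested, 7.14%, 1.72% and 1.69% were called in these comparisons, so that the counts of the list in footprints and RNA are near the background. Those that rose in footprints included the U2 proteins SF3B4 (0.38, adjusted p = 0.0391) and PUF60 (0.38, adjusted p = 0.0403) and SRRM4, a regulator of neural microexons (0.89, adjusted p = 0.0353). Those that fell in footprints were the Sm protein SNRPG (−0.54, adjusted p = 0.00273), the helicases DDX5 (−0.35, adjusted p = 0.0399) and DDX17 (−0.47, adjusted p = 0.00784), and SYNCRIP, which is also called hnRNP Q (−0.46, adjusted p = 0.00747). SRRM4 and SRRM1 rose in TE (1.33 and 0.63), the kinase DYRK1A and SYNCRIP fell (−0.98 and −0.64), and RBM10 rose in RNA (0.60, adjusted p = 0.0155). The list's medians were −0.02 in footprints, 0.05 in RNA and −0.01 in TE.

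The footprint calls of QKI and HNRNPAB were kept when any 1 of the 6 libraries was left out (adjusted p up to 0.00179 and 0.0113). The call of HNRNPD was lost without zotatifin library 2, vehicle library 1 or vehicle library 3 (adjusted p = 0.0644, 0.0869 and 0.0736), and that of PTBP1 without zotatifin library 1, vehicle library 1 or vehicle library 2 (0.103, 0.113 and 0.0583). HNRNPA3 was kept only without zotatifin library 2 or vehicle library 2 (adjusted p up to 0.118 otherwise), and TRA2A only without zotatifin library 2 (up to 0.124 otherwise). CELF2 was kept in footprints only without zotatifin library 2 or vehicle library 2 (up to 0.11 otherwise) and in RNA only without zotatifin library 1 or vehicle library 2 (up to 0.203 otherwise). Without the block, the TE calls of HNRNPAB and HNRNPC were lost without any 1 tumour (up to 0.148 and 0.154), and that of PTBP1 was kept only without zotatifin tumour 2 (up to 0.145 otherwise). With the block, HNRNPAB, HNRNPC, HNRNPD, HNRNPF, PTBP1, QKI, SRSF3 and TRA2A were called in all 6 fits that left out 1 tumour (adjusted p up to 0.0396). HNRNPCL1 and HNRNPCL2 were lost without zotatifin tumour 2 or vehicle tumour 1, and HNRNPH2 also without vehicle tumour 3 (up to 0.236).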

How the data were processed

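Groups were read from sample titles and column names. In 6 of 12 samples the labelled treatment disagrees with the title, since every footprint library is labelled zotatifin and every RNA library untreated. The code 226 in the column names was read as zotatifin. Nothing tells whether replicates were injected apart, so p-values measure the spread between these tumours.

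The authors deposited raw counts per transcript, 1 transcript per gene, for footprints and RNA. Per the submitters' processing notes, cutadapt 2.3, UMI-tools, Bowtie2 2.3.5 and DESeq2 were used on hg38, with no role or order given. The authors' deposited RNA table gives normalised counts as a signal, log2 fold changes, a Wald score and plain and adjusted p-values. The authors' deposited footprint table holds an estimate on the natural log scale with an FDR, a p-value adjusted by the authors. The scale follows from its fit to the count tables, where over 1566 genes the weights on the log2 footprint and RNA changes were 0.665 and −0.666, near the natural log of the fold of 2 (0.693).

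Counts were fitted with edgeR 4.0.16 (R 4.3.3; filterByExpr with a minimum count of 10 and total of 15, TMM, robust quasi-likelihood F test). Each assay was fitted apart, TE as the interaction of assay and treatment over 12 libraries, and p-values were adjusted over all genes tested. The SE was derived as the absolute log2 change divided by the square root of the F statistic. The edgeR fits without the block were tested on simulated counts that held no tumour effect, and the blocked fit was not tested in this way. Pairing was checked on 4889 genes: footprint and RNA libraries of 1 number and treatment correlated at 0.217 to 0.44 after group means were removed, and those of other numbers at −0.381 to 0.119. Libraries of 1 number across treatments correlated at −0.0946 to 0.181, so numbers were taken to mark tumours within a treatment. The replicate block for TE is therefore the tumour.

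Named are all called members, the 2 per family with most footprint counts, and per comparison the 3 uncalled with the lowest adjusted p; others are named as chosen later. 1 gene of the splicing list is counted but not reported here by name. Members, gene lists and markers were chosen with earlier results of these data known. Alternatives were DESeq2 1.42.0, RLE factors, library totals, no filter on low counts, a mean of at least 20 counts, the replicate block, near copies summed, and leaving out each replicate. Gene positions and starts are from RefSeq (GRCh38.p14).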

Additional observations from a re-analysis of the deposited data

How the results depend on the processing

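Genes called in footprints numbered 416 by DESeq2, and genes called in RNA 624 without a filter and 527 with the replicate block (number as block). Members called in RNA numbered 2 by DESeq2. Genes called in TE numbered 819 with the tumour as a block and 454, 532, 533, 568, 577 and 661 when the blocked fit left out 1 tumour. Members called in TE numbered 8 by DESeq2, 5 without a filter, 6 with library totals and 13 with the block, and 8, 9, 11 or 12 in the blocked fits without 1 tumour. Without any 1 library, and without the block for TE, 185 to 726 genes and 2 to 6 members were called in footprints, 11 to 396 genes and 0 to 2 members in RNA, and 56 to 132 genes and 0 to 1 members in TE. Near copies summed with the replicate block gave HNRNPC a TE change of −0.55.

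Family medians moved where thin genes entered. CELF was −1.65 in footprints and −1.44 in TE without a filter (−0.17 in TE by DESeq2). RBFOX was −1.10 and −0.34 in footprints and RNA by DESeq2 and −1.02 and −0.33 without a filter, and the SR proteins were −0.011 in TE without a filter. Leaving out 1 library gave medians, in footprints, RNA and TE, of 0.012 to 0.075, 0.0056 to 0.14 and −0.017 to 0.12 for SR proteins. For hnRNPs they were −0.099 to 0.042, 0.15 to 0.22 and −0.17 to −0.11, and for CELF −0.31 to 0.0032, −0.22 to −0.096 and −0.36 to 0.22. For MBNL they were −0.40 to −0.16, −0.50 to −0.24 and −0.12 to 0.15, and for PTBP −0.12 to 0.055, −0.22 to −0.13 and 0.10 to 0.29. For RBFOX they were −0.62 to −0.18, −0.13 to 0.13 and −0.62 to −0.080, and for the QKI group −0.10 to −0.033, 0.023 to 0.084 and −0.11 to −0.036.

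Signs turned for members that no setting called in that comparison, and the cause was not tested. CELF1 in footprints was −0.00010 by DESeq2, −0.0062 without a filter, −0.014 with the replicate block and −0.0078 with library totals. MBNL1 in TE was −0.0050 without a filter, and U2AF2 in TE was −0.011 by DESeq2, −0.027 without a filter and −0.013 with library totals. Leaving out 1 library or tumour, CELF1 ranged from −0.064 to 0.0995 in footprints, PTBP3 from −0.19 to 0.014 and TRA2B from −0.10 to 0.0071. In RNA, MBNL2 ranged from −0.16 to 0.048 and RBFOX2 from −0.13 to 0.13. In TE, CELF2 ranged from −0.38 to 0.97, HNRNPA1 from −0.039 to 0.15, HNRNPL from −0.15 to 0.066, MBNL1 from −0.095 to 0.15, PTBP3 from −0.040 to 0.13 and U2AF2 from −0.019 to 0.027.

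Footprint depth limited CELF2, CELF3, RBFOX2, MBNL2 and PTBP2, and 3 tumours per group limited every call. QKI had fewer footprint counts with zotatifin than PTBP2 (30, 17 and 32 against 38, 20 and 37).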
